A study of Mus musculus with 12 samples.

Results

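Blood taken 24 h after the last dose of CPI-0209 was set against blood from vehicle-treated mice, gene by gene and library by library. The comparison used 6 of the 12 libraries of the series, chosen by their labels alone: 3 from CPI-0209-treated mice bled at 24 h and 3 from vehicle-treated mice. Every mouse was of the CB17-SCID strain, which lacks mature T and B cells, and carried a xenograft grown from HT1376 cells, a line from a human bladder cancer. CPI-0209 was dosed orally each day at 35 mpk (mg per kg), and treatment lasted 11 days in the treated and in the vehicle mice. The remaining 6 libraries came from mice on the same compound bled 1 h or 6 h after the last dose. They entered the estimate of the spread and are given where a treated level at another time is of use. The labels give no bleeding time for the vehicle mice, so treatment and bleeding time cannot be told apart. They also do not say whether each library is 1 mouse, so p-values measure only the spread between these samples, which may be technical.

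CPI-0209, also named tulmimetostat, inhibits EZH2 and EZH1, the alternative catalytic subunits of Polycomb repressive complex 2 (PRC2). Together with the core subunits SUZ12 and EED, these enzymes methylate the tail of histone H3 at genes that a cell keeps silent. In blood formation PRC2 keeps regulators of other lineages and stages silent, and EZH2 is needed for lymphocyte development. Whole blood holds RNA of neutrophils, monocytes, lymphocytes, platelets and reticulocytes, the youngest red cells, which still carry transcripts. In such a mixed sample, fewer cells of a type and less RNA per cell cannot be told apart.

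The authors' counts per gene summed to 6496573 to 7653753 in the 24 h libraries and to 7653152 to 8530531 in the vehicle libraries. Levels are CPM, counts scaled to a fixed library size, on library sizes scaled by TMM, a method that equalises the bulk of genes. Its factors spanned 0.856 to 1.33 in the treated libraries and 1.03 to 1.12 in the vehicle libraries. The labelled tissue was checked against marker genes. Transcripts of 35 reticulocyte genes took 5.42% to 10.2% of counts at 24 h and 8.22% to 8.88% in vehicle, and those of 28 mature neutrophil genes took 0.863% to 1.27% at 24 h, against 0.903% to 1.47% of counts in vehicle. The 18 T cell markers summed to only 504 to 787 counts per library at 24 h and 448 to 782 in vehicle, and the 15 B cell markers to 289 to 569 at 24 h and 295 to 528 in vehicle. Of tissues foreign to blood, 9 epithelial markers summed to 22 to 67 counts at 24 h, against 19 to 37 counts in vehicle. The 10 fibroblast and muscle markers summed to 5 to 68 counts at 24 h and 5 to 8 in vehicle. The 68 were in 24 h replicate 1, where Dcn had 30. The 8 endothelial markers summed to 1781 to 2034 counts at 24 h and 1271 to 1794 in vehicle, more than the T or B cell markers. Most were of Pecam1 (1486, 1751 and 1532 at 24 h), which platelets and leukocytes also make. Epithelial, fibroblast and muscle marker counts were low beside those of reticulocytes and neutrophils. Vehicle replicate 1 stood apart in some markers of eosinophils, basophils and mast cells. Alox15 had 1543, 15 and 13 counts in vehicle and 175, 189 and 24 at 24 h. Cpa3 had 125, 8 and 9 counts in vehicle, and Tpsb2 had 73, 0 and 0. Other markers of these lists did not follow, such as Siglecf with 139, 162 and 226 counts in vehicle.

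The 3 libraries at 24 h lay further apart than those of any other group. The median gene had an SD over 3 libraries of 0.27 log2 CPM in vehicle, 0.25 at 1 h, 0.29 at 6 h and 0.40 at 24 h. Of the 13384 genes tested, 8784 (65.6%) had a larger SD at 24 h than in vehicle. Replicates 1 and 3 at 24 h differed by more than 2-fold in 27.6% of genes, whereas the pairs with replicate 2 differed that far in 13.5% (with replicate 1) and 15.6% (with replicate 3). In vehicle the 3 pairs reached 9.54%, 12.3% and 9.97%. Replicate 2 was thus the middle library at 24 h, and it held the middle value in 52.3% of genes.

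**Figure D1:**
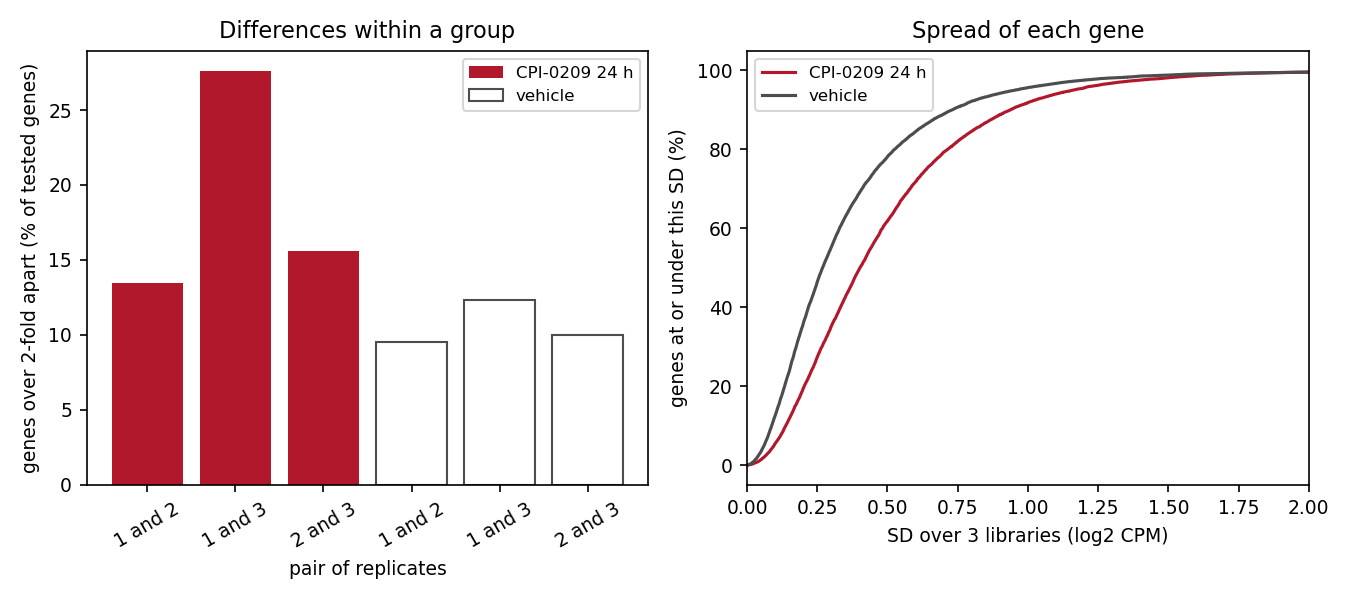
Left, the percentage of 13384 tested genes that differ by more than 2-fold between 2 replicates, for the 3 pairs at 24 h (red) and the 3 pairs in vehicle (white). Right, the cumulative percentage of genes against their SD over 3 libraries in log2 CPM. The bar for replicates 1 and 3 at 24 h (27.6%) is the tallest, and the 24 h curve lies to the right of the vehicle curve, with medians of 0.40 and 0.27.

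Among 5302 well-expressed genes (mean of at least 4 log2 CPM over the 6 libraries), 116 spanned more than 2 log2 units, which is 4-fold, between the highest and lowest 24 h library, and 13 did so in vehicle. Replicate 3 was highest and replicate 1 lowest in 99 of the 116, the reverse held in 12, and 5 had another order. The 10 widest all ran upward from replicate 1 through replicate 2 to replicate 3, numbers to which the labels give no further meaning. Apol11b, of the apolipoprotein L family, had 204, 521 and 2303 CPM at 24 h, and 83.4, 767 and 966 CPM in vehicle. Its vehicle libraries were as far apart as the treated ones, since vehicle replicate 1 was low as well.

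The other 9 of the widest genes lay closer together in vehicle, within 0.91 log2 units. Rgs18, a regulator of G protein signalling in platelets, had 187, 559 and 1253 CPM at 24 h, against 616, 842 and 669 CPM in vehicle. Tfrc, the transferrin receptor through which red cell precursors take up iron, had 160.1, 423 and 978 CPM at 24 h, against 514, 399 and 520.3 CPM in vehicle. Knl1, a scaffold of the kinetochore, had 33.4, 106 and 222 CPM at 24 h, against 142, 137 and 151 CPM in vehicle. In each of these 3 genes the treated libraries fell on both sides of the vehicle range. Pola1, the catalytic subunit of DNA polymerase alpha, had 5.71, 12.02 and 36.4 CPM at 24 h and 20.5, 19.9 and 18.8 CPM in vehicle. Ctsf, a lysosomal protease, had 7.22, 17.2 and 46.3 CPM at 24 h and 11.3, 16.2 and 15.4 CPM in vehicle. The remaining genes, Chac2, Depdc1a, Memo1 and Acmsd, spanned 2.58 to 2.89 log2 units at 24 h and 0.60 to 0.91 in vehicle. For genes of this kind a 24 h mean describes no library well, and the adjusted p of the 10 genes ran from 0.69 to 0.99 (edgeR).

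**Figure D2:**
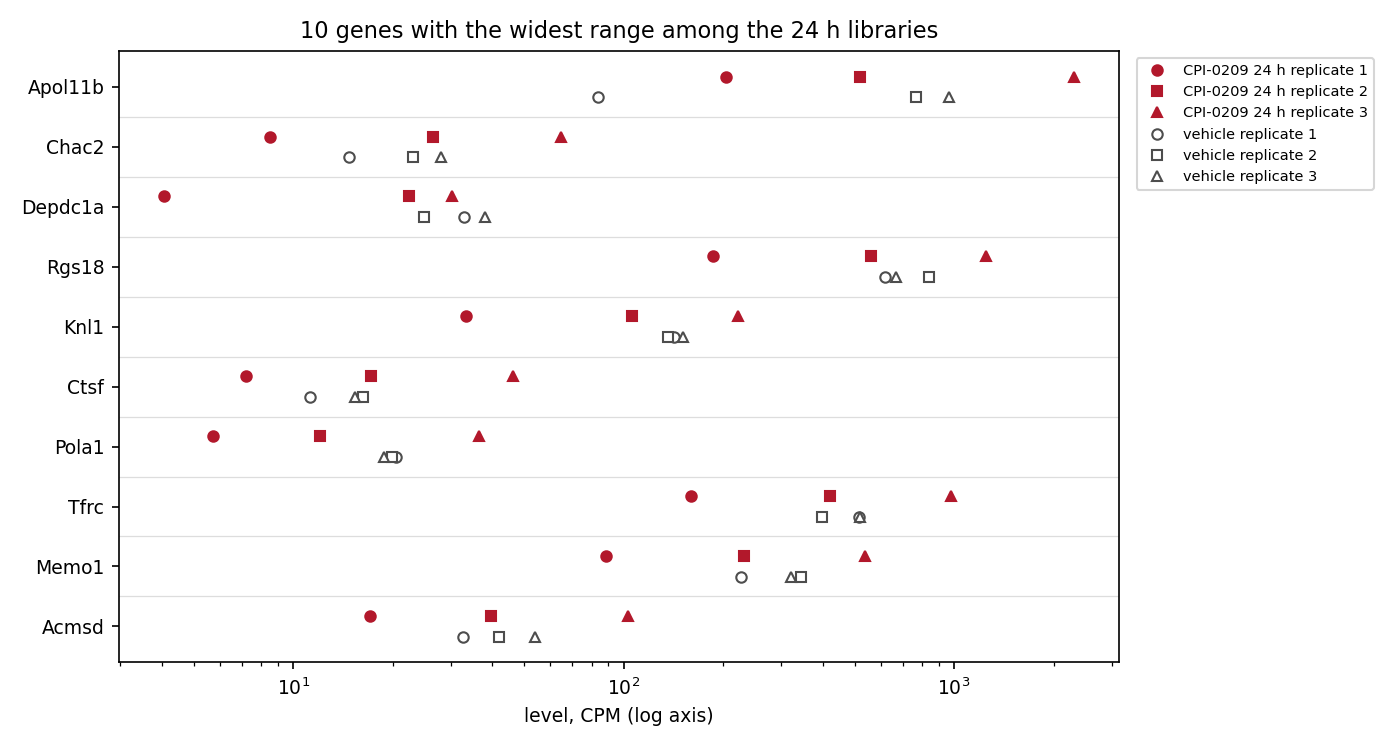
Level in CPM on a log axis of the 10 well-expressed genes with the widest range at 24 h, in 3 libraries at 24 h (red, upper row of each gene) and 3 in vehicle (open, lower row), with the symbol giving the replicate. In all 10 the circle (replicate 1) is left and the triangle (replicate 3) right at 24 h, as in Tfrc with 160, 423 and 978 CPM.

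The order was shared by most genes of several cell type lists. The mean of 35 reticulocyte genes was 6.85, 7.42 and 8.45 log2 CPM at 24 h, against 7.41, 7.45 and 7.69 log2 CPM in vehicle. As scaled here, all 35 were highest in replicate 3, and replicate 2 held the middle value in 33. That count depends on the scaling: Tal1 had 968, 852 and 908 raw counts, the most in replicate 1, which had the smallest library total at 24 h. The span between the highest and lowest library was 0.29 log2 units in vehicle, 0.24 at 1 h, 0.13 at 6 h and 1.60 at 24 h. With libraries scaled by totals alone the 24 h span was 0.99. Car2, a carbonic anhydrase of red cells, had 392, 871 and 1924 CPM at 24 h, against 456, 618 and 705 CPM in vehicle. Its replicate 1 was below all 3 vehicle libraries, while replicates 2 and 3 were above them.

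Related lists were ordered alike. The 21 genes of haem synthesis and iron averaged 5.73, 6.02 and 6.82 log2 CPM at 24 h, against 6.13, 6.22 and 6.39 log2 CPM in vehicle, with 17 highest in replicate 3. Urod, an enzyme of haem synthesis, had 51.3, 97.2 and 226 CPM at 24 h, against 120.3, 127 and 129 CPM in vehicle. The 28 platelet and megakaryocyte genes averaged 7.12, 7.64 and 8.22 log2 CPM at 24 h, against 7.50, 7.65 and 7.26 log2 CPM in vehicle, with 26 highest in replicate 3. Of 36 large ribosomal subunit genes 31 were highest in replicate 3 too, with list means of 5.52, 5.86 and 6.27 log2 CPM at 24 h and 5.81, 6.00 and 5.86 log2 CPM in vehicle. With libraries scaled by totals alone the 24 h spans of the haem, platelet and ribosomal lists were 0.47, 0.47 and 0.21, against 1.09, 1.10 and 0.75 as scaled here. Monocyte genes were more often highest in replicate 1: 11 of 20 classical and 11 of 13 nonclassical monocyte genes were highest in replicate 1, while 2 classical and 1 nonclassical were highest in replicate 3. Csf1r, the receptor for the monocyte growth factor, had 229.8, 129.9 and 87.4 CPM at 24 h and 141, 128 and 114 CPM in vehicle. As scaled here, NK cell and interferon-stimulated genes kept list means inside the vehicle range in all 3 treated libraries. Their spans were 0.21 log2 units for NK cells and 0.15 for interferon genes at 24 h, against 0.46 and 0.37 in vehicle. For NK cells this depended on the scaling. As a plain share of counts, NK cell genes took 0.121%, 0.121% and 0.0719% at 24 h, against 0.100%, 0.121% and 0.0799% in vehicle. Replicate 3 at 24 h was thus below every vehicle library. Interferon genes took 0.730%, 0.767% and 0.755% at 24 h, against 0.678%, 0.652% and 0.793% in vehicle.

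**Figure D3:**
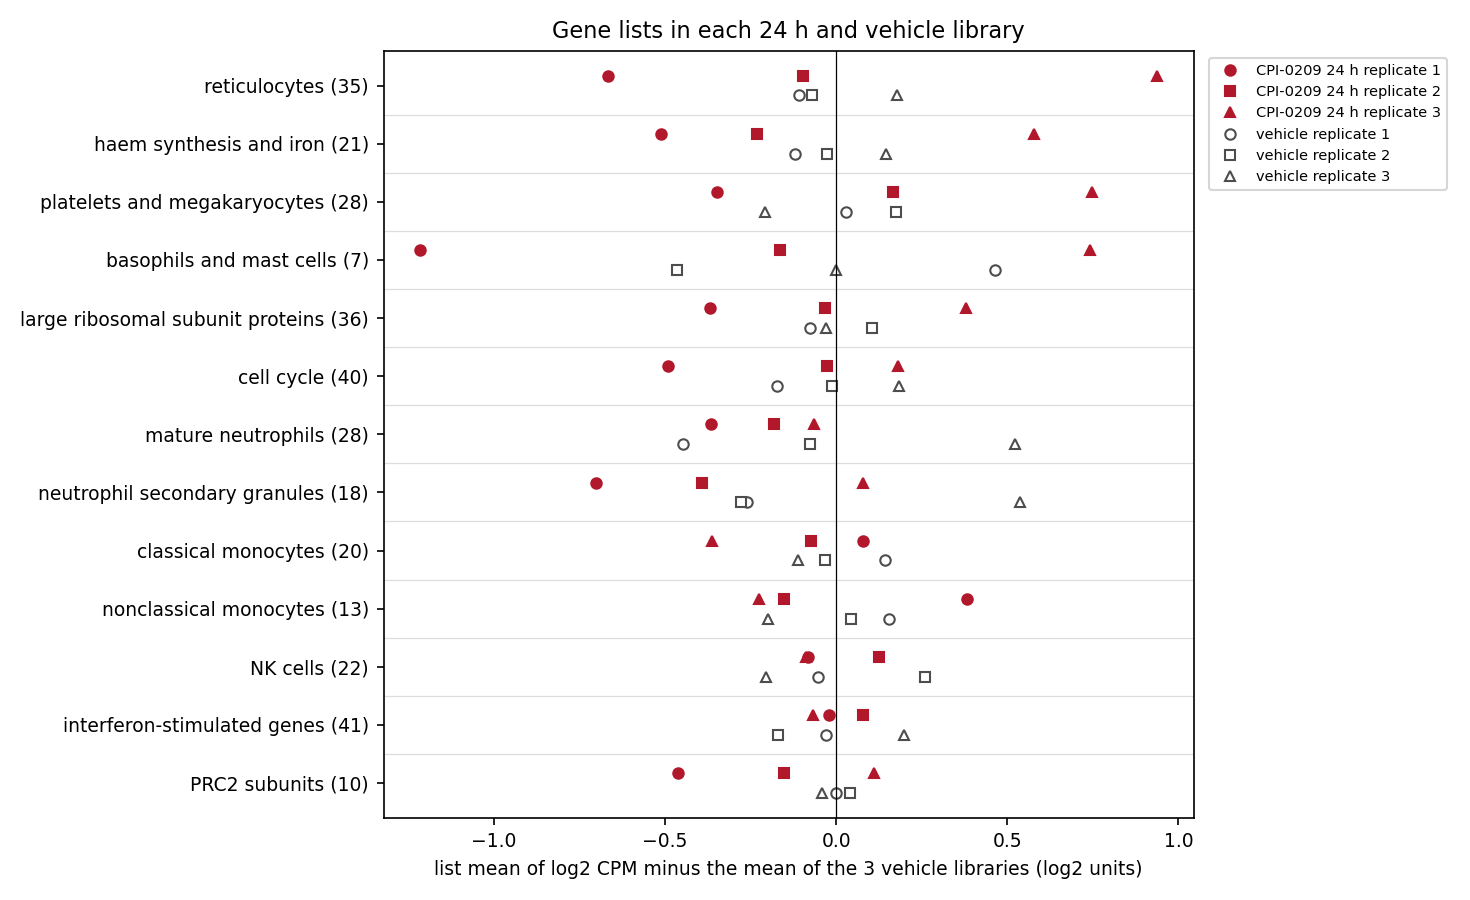
Mean log2 CPM of 13 gene lists (tested genes in brackets) in each library, as the difference from the mean of the 3 vehicle libraries. At 24 h (red, upper row) the reticulocyte, haem, platelet and ribosomal lists run from replicate 1 on the left to replicate 3 on the right, with reticulocyte means of 6.85, 7.42 and 8.45, while the vehicle libraries (open, lower row) lie closer together.

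Against this spread, 14 genes were called higher at 24 h than in vehicle (0.105% of the 13384 tested) and 0 were called lower (0%), at an edgeR adjusted p under 0.05. At an unadjusted p under 0.05, 676 genes (5.05%) were higher and 444 (3.32%) lower, and DESeq2 called 75 higher and 16 lower. All 3 treated libraries were above all 3 vehicle libraries in 848 genes (6.34%) and below them in 751 (5.61%). A permutation test of a single gene with 3 libraries against 3 cannot give a two-sided exact p under 0.1, so the calls rest on the spread estimated over all genes and all 12 libraries. The 14 genes were Mapre3, Rims3, Syt13, Ptprn, Cpne8, Runx1t1, Scd1, Hsd3b6, Slc4a5, Car8, Rragd, Mtss2, Pdzk1ip1 and Nif3l1. In all 14 the treated and vehicle libraries did not overlap, and the log2 fold changes ran from 1.22 to 4.35 with a median of 2.14. The called genes showed no common order of the treated libraries, with replicate 1 lowest in 7 and replicate 3 highest in 7.

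**Figure D4:**
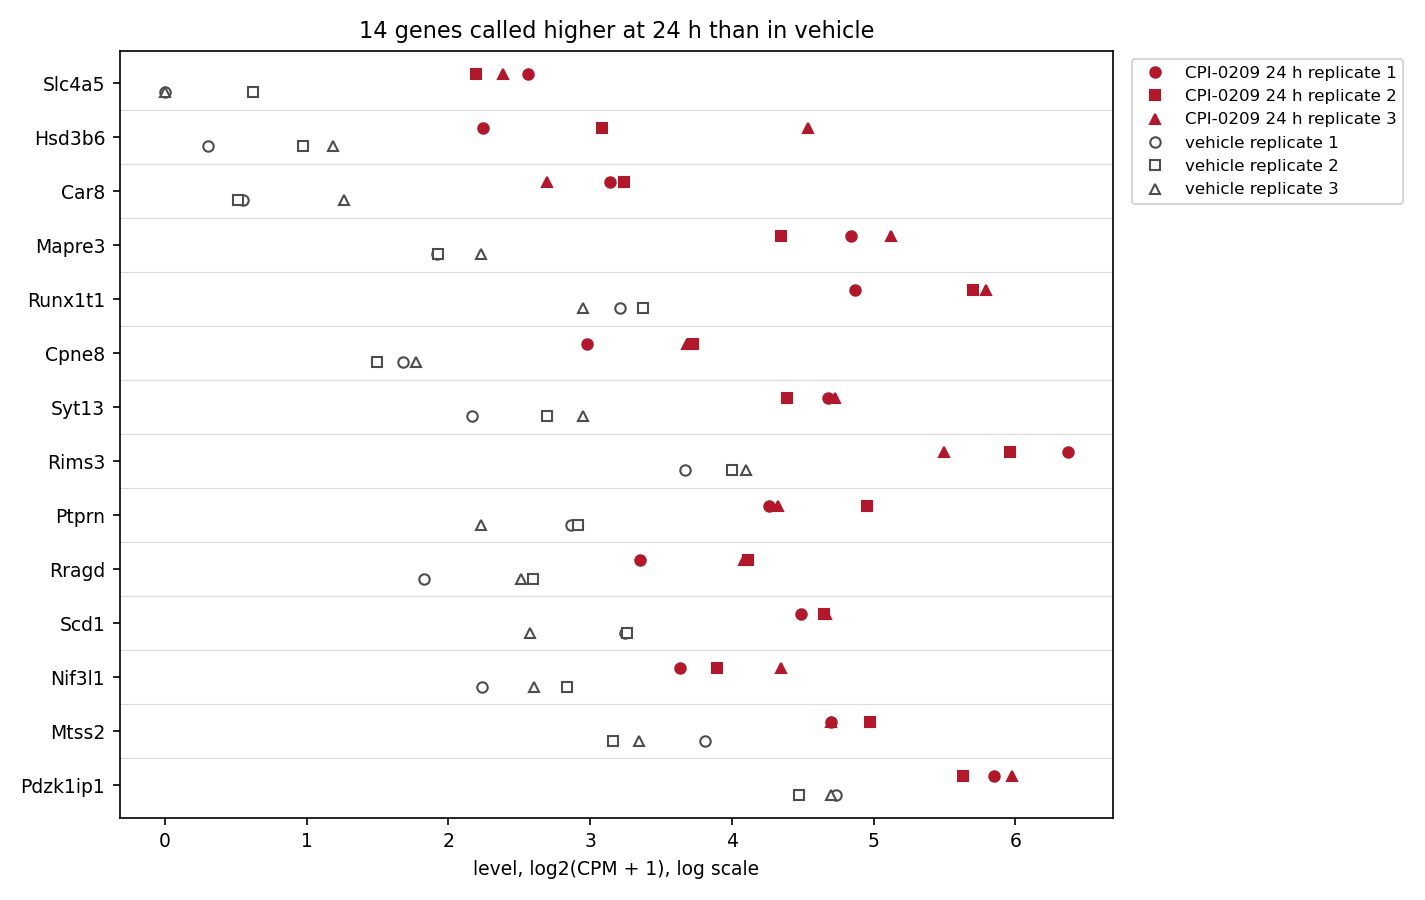
Levels of the 14 called genes as log2(CPM + 1) in 3 libraries at 24 h (red, upper row of each gene) and 3 in vehicle (open, lower row), ordered by log2 fold change. Every red point lies to the right of every open point of its gene, the smallest gap in group means being that of Pdzk1ip1 with a log2 fold change of 1.22.

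Mapre3 encodes EB3, which binds the growing ends of microtubules, and had 27.6, 19.4 and 33.8 CPM at 24 h, against 2.79, 2.79 and 3.69 CPM in vehicle. Its log2 fold change was 3.12 (SE 0.35, adjusted p = 0.0019, edgeR), and it was called in all 26 alternative fits, with adjusted p up to 0.042. Rims3, a protein of the presynaptic release site, had 81.9, 61.2 and 44.1 CPM at 24 h, against 11.7, 15.05 and 16.2 CPM in vehicle. Its log2 fold change was 2.12 (SE 0.32, adjusted p = 0.0161, edgeR), and here replicate 1 was the highest of the treated libraries. Syt13, a synaptotagmin of vesicle traffic, had 24.6, 19.9 and 25.5 CPM at 24 h, against 3.49, 5.48 and 6.74 CPM in vehicle. The treated libraries lay within 0.35 log2 units of each other, and the log2 fold change was 2.15 (SE 0.28, adjusted p = 0.0073, edgeR). Ptprn, a membrane protein of dense-core vesicles, had 18.2, 30.001 and 19.1 CPM at 24 h, against 6.28, 6.56 and 3.69 CPM in vehicle, a log2 fold change of 2.02. Cpne8, a copine that binds membranes in the presence of calcium, had 6.87, 12.2 and 11.9 CPM at 24 h, against 2.21, 1.83 and 2.42 CPM in vehicle, a log2 fold change of 2.26. The adjusted p was 0.0235 for Ptprn and 0.0161 for Cpne8 (edgeR). These 5 genes, all called, are described together here only by their known roles. Mapre3 alone of them is on the list of microtubule plus-end and neuronal vesicle genes, where it was the 1 call among 10 tested genes. Rims3, Syt13, Ptprn and Cpne8 are not on that list. The median log2 fold change of the list was 0.17, against 0.0067 over all tested genes.

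Rims3 lies on chromosome 4, 120854816 to 120896579, and Mapre3 on chromosome 5, 30814641 to 30866106, both on the plus strand of GRCm38. Syt13 lies on chromosome 2 (92915098 to 92956058, plus strand), Ptprn on chromosome 1 (75247027 to 75264502, minus strand) and Cpne8 on chromosome 15 (90487482 to 90679432, minus strand). Exons of Ptprn share 189 bases with those of an antisense gene, Gm28294, which had 0 counts at 24 h and 0 in vehicle. Of the other called genes, Runx1t1 lies on chromosome 4 (13743436 to 13893649, plus strand), Scd1 on chromosome 19 (44394455 to 44407879, minus strand) and Hsd3b6 on chromosome 3 (98805504 to 98814443, minus strand). Slc4a5 lies on chromosome 6 (83219828 to 83304945, plus strand), Car8 on chromosome 4 (8143362 to 8239041, minus strand) and Rragd on chromosome 4 (32983037 to 33022180, plus strand). Pdzk1ip1 lies on chromosome 4 (115088708 to 115093899, plus strand), Mtss2 on chromosome 8 (110721476 to 110741400, plus strand) and Nif3l1 on chromosome 1 (58445151 to 58481816, plus strand). All 14 are protein-coding.

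All called genes rose, and in mammals PRC2 is found at stretches of DNA rich in CG dinucleotides, so their promoters were read. RefSeq windows of 300 bases around a start (250 before, the rest after) were matched by symbol for 10 of the 14 called genes and for 9489 of the 13384 tested. Only the first listed window of each gene was used. For Slc4a5 that window (chromosome 6, 83237125 to 83237424) lay inside the gene, which starts at 83219828. The called genes had a median of 12 CG dinucleotides per window (3 to 44), against 21 over the tested genes, and 20 or more stood in 2 of 10 (20%), against 53.7%. GC content was similar, at a median of 60.0% and 60.7%. Members differed widely: Mtss2 had 44 CG dinucleotides and Cpne8 32, whereas Hsd3b6 and Pdzk1ip1 had 3 each. Upstream sequences of the 2 with the most are shown beside those of Mapre3 and Rims3, which lie nearer the median of the called genes, each as the 250 bases before the RefSeq start (GRCm38.p6, strand of the gene, 5′ to 3′) with CG in capitals. The motif searched was CG, which reads the same on both strands. The stretches shown hold 34 (Mtss2), 28 (Cpne8), 12 (Mapre3) and 6 (Rims3). The counts describe these windows only.
Mtss2 (chr8:110721226-110721475, plus strand): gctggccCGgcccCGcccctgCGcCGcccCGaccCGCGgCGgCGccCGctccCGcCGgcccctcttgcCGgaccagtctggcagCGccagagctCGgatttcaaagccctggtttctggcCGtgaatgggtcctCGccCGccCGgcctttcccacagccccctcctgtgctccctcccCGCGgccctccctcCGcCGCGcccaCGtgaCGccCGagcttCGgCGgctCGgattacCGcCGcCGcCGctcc
Cpne8 (chr15:90679389-90679638, minus strand): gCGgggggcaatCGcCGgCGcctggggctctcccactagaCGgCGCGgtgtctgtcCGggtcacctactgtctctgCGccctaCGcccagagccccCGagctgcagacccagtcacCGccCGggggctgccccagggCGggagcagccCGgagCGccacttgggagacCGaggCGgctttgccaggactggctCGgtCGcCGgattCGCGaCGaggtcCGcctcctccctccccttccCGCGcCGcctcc
Mapre3 (chr5:30814391-30814640, plus strand): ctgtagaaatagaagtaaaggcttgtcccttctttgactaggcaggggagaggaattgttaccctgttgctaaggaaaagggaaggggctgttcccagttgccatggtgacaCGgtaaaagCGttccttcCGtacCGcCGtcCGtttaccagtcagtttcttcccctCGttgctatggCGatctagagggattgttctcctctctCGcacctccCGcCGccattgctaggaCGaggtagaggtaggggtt
Rims3 (chr4:120854549-120854798, plus strand): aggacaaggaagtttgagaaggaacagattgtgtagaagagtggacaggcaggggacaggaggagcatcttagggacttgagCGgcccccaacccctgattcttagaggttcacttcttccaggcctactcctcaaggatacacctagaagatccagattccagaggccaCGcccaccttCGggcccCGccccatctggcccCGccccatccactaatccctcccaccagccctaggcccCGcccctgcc

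Runx1t1, the corepressor ETO, which recruits histone deacetylases, had 28.2, 51.0 and 54.5 CPM at 24 h, against 8.25, 9.35 and 6.74 CPM in vehicle. Every treated library was above every vehicle library, with replicate 1 the lowest of a treated range of 0.95 log2 units. Its log2 fold change of 2.45 (SE 0.25, adjusted p = 0.0011, edgeR) was the change with the smallest p. Of 7 genes of the ETO and RUNX families, 1 was called. The next by p was Cbfa2t3, another ETO-family corepressor, with 56.8, 31.7 and 43.9 CPM at 24 h, against 30.9, 22.9 and 17.4 CPM in vehicle, and a log2 fold change of 0.89 that did not pass (adjusted p = 0.36, edgeR). Runx1, the DNA-binding partner of blood formation, had 167, 138 and 130.5 CPM at 24 h and 124, 137 and 127 CPM in vehicle, and its groups overlapped.

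Scd1, a fatty acid desaturase, had 21.4, 24.0 and 24.4 CPM at 24 h, against 8.48, 8.60 and 4.96 CPM in vehicle. This was the tightest treated group among the called genes (0.18 log2 units), with a log2 fold change of 1.66 (SE 0.24, adjusted p = 0.0161, edgeR). Of 21 lipid synthesis genes Scd1 was the only 1 called, and 4 had all treated libraries above vehicle (19.0%, against 6.34% of all tested genes). Gpd1, a glycerol phosphate dehydrogenase, had 2.56, 3.03 and 4.38 CPM at 24 h, against 0.697, 0.752 and 0.382 CPM in vehicle (log2 fold change 2.39, adjusted p = 0.0547, edgeR, not passing). Pcx, the pyruvate carboxylase, had 7.22, 12.997 and 22.0 CPM at 24 h, against 2.32, 4.62 and 6.11 CPM in vehicle (log2 fold change 1.68, adjusted p = 0.16, edgeR, not passing). Elovl6, which lengthens fatty acids, had 65.0, 50.6 and 85.8 CPM at 24 h and 49.9, 34.5 and 43.5 CPM in vehicle, without overlap. Without 24 h replicate 1 the list held 3 calls, and without replicate 3 it held 2.

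Hsd3b6, a steroid dehydrogenase, had 3.73, 7.47 and 22.2 CPM at 24 h, against 0.232, 0.967 and 1.27 CPM in vehicle. It was the called gene with the widest treated range (2.50 log2 units), with a log2 fold change of 3.72 (SE 0.62, adjusted p = 0.0313, edgeR). Other genes of this family are similar in sequence, so the count is uncertain where reads could be shared. Hsd3b6 held 243 counts at 24 h and 21 in vehicle, and 5 other members together held 3 at 24 h and 6 in vehicle. Slc4a5, a bicarbonate cotransporter, had 102 counts at 24 h and 5 in vehicle, where replicates 1 and 3 were at 0. The ratio was 21.7 on library sizes (95% exact interval 9.0 to 68.3, counting error only), with 4.89, 3.57 and 4.22 CPM at 24 h, against 0, 0.537 and 0 CPM in vehicle. All 5 vehicle counts were in replicate 2. The fitted log2 fold change was 4.35, but it ran from 3.81 without vehicle replicate 1 to 8.10 without vehicle replicate 2. Car8, related to carbonic anhydrases but without their activity, had 180 counts at 24 h and 19 in vehicle, a ratio of 10.1 (6.27 to 17.1). Its levels were 7.80, 8.45 and 5.47 CPM at 24 h, against 0.465, 0.430 and 1.40 CPM in vehicle. Both were called, with adjusted p of 0.0165 for Slc4a5 and 0.0106 for Car8 (edgeR). They were the 2 called of 11 tested genes of bicarbonate transport and carbonic anhydrases, while Car2 and Slc4a1 of red cells, at log2 fold changes of 0.84 and 0.54, were not.

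Rragd, a Rag GTPase that signals amino acid supply to mTORC1 on lysosomes, had 9.20, 16.4 and 15.9 CPM at 24 h, against 2.56, 5.05 and 4.71 CPM in vehicle. Its log2 fold change was 1.75 (SE 0.29, adjusted p = 0.0313, edgeR), the 1 call among 18 genes of Rag GTPases and lysosomes. Pdzk1ip1, a small membrane protein that binds PDZ domains, had 56.7, 48.5 and 62.0 CPM at 24 h, against 25.6, 21.2 and 24.9 CPM in vehicle, the smallest of the 14 changes at 1.22 (SE 0.17, adjusted p = 0.0106, edgeR). Mtss2, which shapes membranes and actin, had 25.0, 30.4 and 25.0 CPM at 24 h, against 13.02, 7.95 and 9.16 CPM in vehicle (log2 fold change 1.42, adjusted p = 0.0232, edgeR). Nif3l1 had 11.4, 13.9 and 19.4 CPM at 24 h, against 3.72, 6.13 and 5.09 CPM in vehicle (log2 fold change 1.57, adjusted p = 0.0313, edgeR). Exons of Nif3l1 share bases with exons of Orc2 (1150) and Ppil3 (336) on the other strand, and its value is uncertain because the use of strand in counting is not stated in those sources read here. Counts of both neighbours were lower at 24 h (193 and 216) than in vehicle (278 and 275). Reads in the shared bases were not counted apart, and their part in the result was not tested.

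The levels of the 14 genes in the other treated groups are given side by side, as all share the vehicle libraries. The mean at 1 h and at 6 h was above the vehicle mean in all 14. Tested directly between treated groups, 0 genes were higher at 24 h than at 1 h (0%) and 3 lower (0.0224%), none of them named here. Against 6 h, 68 genes were higher at 24 h (0.508%) and 167 lower (1.25%). Of the called genes, Slc4a5, Runx1t1, Rragd and Scd1 were lower at 24 h than at 6 h, and Rims3 was higher. Rims3 averaged 14.3 ± 2.30 CPM in vehicle, 42.2 ± 3.50 at 1 h, 25.4 ± 11.3 at 6 h and 62.4 ± 18.9 at 24 h (± is the SD of 3 libraries). It was the only called gene whose 24 h level passed the test above 6 h (difference 1.29, SE 0.31, adjusted p = 0.048, edgeR). Syt13 averaged 5.24 ± 1.64 CPM in vehicle, 12.5 ± 3.44 at 1 h, 23.1 ± 3.47 at 6 h and 23.3 ± 2.97 at 24 h. Mtss2 averaged 10.04 ± 2.64 CPM in vehicle, 14.4 ± 2.96 at 1 h, 27.6 ± 1.51 at 6 h and 26.8 ± 3.13 at 24 h (± is the SD of 3 libraries). For these 2 genes the 24 h and 6 h levels were within the spread of the replicates. The difference of 24 h from 1 h was 0.89 for each and did not pass (adjusted p = 0.53 and 0.47, edgeR).

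The 8 genes next by p in the higher direction did not pass, with log2 fold changes of 0.77 to 2.33. Adgrg1, an adhesion G protein-coupled receptor of cytotoxic lymphocytes and progenitors, had 246, 211 and 229 CPM at 24 h, against 131, 120.5 and 102 CPM in vehicle (log2 fold change 0.95, SE 0.17, adjusted p = 0.0516, edgeR). Nipal3 had 278, 259 and 273 CPM at 24 h, against 161, 166 and 149 CPM in vehicle (0.77, SE 0.15, adjusted p = 0.0917, edgeR). Both groups were tight in Nipal3, within 0.10 log2 units at 24 h and 0.16 in vehicle. Plag1, a zinc finger transcription factor, had 9.78, 11.6 and 16.4 CPM at 24 h, against 3.37, 2.47 and 4.71 CPM in vehicle (1.84, SE 0.34, adjusted p = 0.060, edgeR). Mrvi1 (0.89), Mb21d2 (2.33), Pygb (0.90), Aff3 (1.57) and Thbs1 (0.97) followed, with adjusted p of 0.098 to 0.12 (edgeR) and no overlap of the groups.

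No gene passed in the lower direction, and the 8 with the smallest p among those without overlap had adjusted p of 0.12 to 0.28 (edgeR). Sart1, a splicing factor, had 2.68, 1.19 and 2.97 CPM at 24 h, against 13.2, 8.81 and 7.89 CPM in vehicle, a log2 fold change of -2.14 (SE 0.44). Slc39a4, a zinc importer, had 3.84, 5.20 and 7.34 CPM at 24 h, against 12.6, 14.7 and 11.1 CPM in vehicle, a log2 fold change of -1.24 (SE 0.29). Il1f9, a cytokine of the interleukin-1 family, had 91.6, 109 and 91.3 CPM at 24 h, against 126, 160.4 and 210.2 CPM in vehicle (-0.77, SE 0.18). Each had all treated libraries below vehicle, without passing. The others were Marcksl1 (-1.07), Carnmt1 (-1.16), Rell1 (-0.86), Cnot2 (-0.78) and Csgalnact2 (-0.61). Slc39a4 and Carnmt1 were lower at 24 h than at 6 h in the direct test, by -1.32 (adjusted p = 0.043, edgeR) and -1.53 (adjusted p = 0.027, edgeR).

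The targets of the compound did not pass the test in either direction in the fit of 4 group means. Ezh2 had 86.5, 180.0 and 391 CPM at 24 h, against 306, 264 and 270.4 CPM in vehicle (log2 fold change -0.35, SE 0.36, adjusted p = 0.85, edgeR). Replicates 1 and 2 were below every vehicle library and replicate 3 above every one, and the range of 2.17 log2 units at 24 h compares with 0.21 in vehicle. Suz12 had 27.4, 61.2 and 53.1 CPM at 24 h, against 77.3, 73.5 and 65.9 CPM in vehicle (-0.61, SE 0.25, adjusted p = 0.53, edgeR), with all treated libraries lower as scaled here. With libraries scaled by totals alone, 0 of the 10 tested PRC2 genes, Suz12 included, had all treated libraries below vehicle. Eed had 13.2, 19.4 and 23.8 CPM at 24 h and 21.5, 20.3 and 22.0 CPM in vehicle, and Ezh1 had 65.3, 46.8 and 68.1 CPM at 24 h and 48.0, 51.2 and 62.0 CPM in vehicle. Without 24 h replicate 1 the log2 fold change of Ezh2 was 0.03, and without replicate 3 it was -1.07 (adjusted p = 0.052, edgeR). Of 10 PRC2 genes 0 were called, and the list mean was 4.97, 5.28 and 5.54 log2 CPM at 24 h, against 5.43, 5.48 and 5.39 log2 CPM in vehicle. That span of 0.57 at 24 h and 0.08 in vehicle ran in the order of the reticulocyte genes, and it was 0.23 with libraries scaled by totals alone. With the reticulocyte level of each library as a covariate, added to the fit as an alternative, Ezh2 was called lower (log2 fold change -0.69, adjusted p = 0.024, edgeR), the 1 call among the PRC2 genes. Of 19 PRC1 genes, which encode the complex that binds the PRC2 mark, 0 were called and 3 had all treated libraries above vehicle (15.8%, against 6.34% of all tested genes). Phc1 among them had 15.4, 10.5 and 12.7 CPM at 24 h, against 8.14, 6.02 and 5.73 CPM in vehicle (0.95, adjusted p = 0.47, edgeR).

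Of the blood cell lists, none held a called gene, but some had many members without overlap. Of 28 platelet and megakaryocyte genes 8 had all treated libraries above vehicle (28.6%, against 6.34% of all genes) and 0 below. Without 24 h replicate 1 it was 13 above (46.4%, against 11.9% of all genes) and 0 below (0%, against 11.6%). Without replicate 3 it was 8 above (28.6%, against 13.9%) and 7 below (25%, against 15.5%). The 8 were Thbs1, Itgb3, Vwf, Itga2b, F5, Gp5, Tubb1 and Gfi1b. Itgb3, the integrin subunit of the fibrinogen receptor, had 449, 459.6 and 538 CPM at 24 h, against 287, 313 and 232 CPM in vehicle (0.80, SE 0.19, adjusted p = 0.20, edgeR). Vwf, the von Willebrand factor, had 561, 407 and 422 CPM at 24 h, against 268, 301 and 254 CPM in vehicle (0.76, SE 0.20, adjusted p = 0.28, edgeR). Thbs1, thrombospondin of platelet granules, had 575, 609 and 926 CPM at 24 h, against 313, 355 and 409 CPM in vehicle (0.97, SE 0.20, adjusted p = 0.12, edgeR). The 8 were listed for lying above vehicle in every treated library, replicate 1 included, and in Vwf replicate 1 was the highest. Ppbp, a platelet chemokine outside the 8, had 163, 598 and 891 CPM at 24 h and 779, 851 and 622 CPM in vehicle. The median of the list was 0.25, and it was 0.50 without 24 h replicate 1 and -0.025 without replicate 3, whose part in the result was not tested. Of 5 tested endothelial genes 3 (Kdr, Pecam1 and Cdh5) were above vehicle (60%, against 6.34% of all tested genes). Of these, Pecam1 is also made by platelets and leukocytes. Cdh5 had only 7, 17 and 6 counts at 24 h and 6, 3 and 3 in vehicle. Kdr, a receptor for VEGF, had 22.6, 8.99 and 12.8 CPM at 24 h, against 6.51, 3.87 and 8.14 CPM in vehicle (1.27, SE 0.37, adjusted p = 0.36, edgeR).

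Of 35 reticulocyte genes 2 were above vehicle in all treated libraries (5.71%), near the 6.34% of all tested genes. With libraries scaled by totals alone it was 6 (17.1%, against 5.45% of all tested genes). Without 24 h replicate 1 it was 9 above (25.7%, against 11.9% of all tested genes) and 0 below (0%, against 11.6%). Without replicate 3 it was 2 above (5.71%, against 13.9%) and 16 below (45.7%, against 15.5%). The 2 encode transcription factors of red cell and platelet precursors. Gata1 had 86.2, 87.3 and 145 CPM at 24 h, against 46.8, 57.8 and 59.0 CPM in vehicle (0.96, SE 0.20, adjusted p = 0.13, edgeR). Tal1 had 113, 92.3 and 142 CPM at 24 h, against 79.4, 86.7 and 89.7 CPM in vehicle (0.44, SE 0.17, adjusted p = 0.51, edgeR). Epb42, of the red cell membrane skeleton, had 127, 279 and 565 CPM at 24 h and 103, 152 and 122 CPM in vehicle, with replicate 1 alone inside the vehicle range (1.37, SE 0.37, adjusted p = 0.30, edgeR). The median of the list was 0.20 with all libraries, 0.47 without 24 h replicate 1 and -0.39 without replicate 3. The calls moved as well, with 2 reticulocyte genes higher without replicate 1, and 6 lower without replicate 3. The part of these libraries in the reticulocyte result was not tested. Among stem and progenitor markers 4 of 10 were above vehicle in all treated libraries (40%, against 6.34% of all tested genes). Msi2, an RNA-binding protein of progenitors, had 31.8, 22.1 and 63.0 CPM at 24 h, against 13.9, 16.2 and 16.8 CPM in vehicle (1.31, SE 0.33, adjusted p = 0.26, edgeR).

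Of 20 immediate early genes 6 (Jund, Atf3, Ier5, Btg2, Zfp36 and Dusp1) had all treated libraries below vehicle (30%, against 5.61% of all genes) and 0 above. With libraries scaled by totals alone it was 2 of 20 (10%, against 4.35% of all genes). Without 24 h replicate 1 it was 10 (50%, against 11.6%). Btg2, an antiproliferative early gene, had 78.5, 75.7 and 82.7 CPM at 24 h, against 94.7, 108 and 113 CPM in vehicle (-0.42, SE 0.14, adjusted p = 0.45, edgeR). Dusp1, a phosphatase of MAP kinases, had 73.0, 51.4 and 70.5 CPM at 24 h, against 88.9, 116 and 139.7 CPM in vehicle (-0.82, SE 0.29, adjusted p = 0.47, edgeR). Of 20 classical monocyte genes 3 (Ly6c2, Ctss and Lyz2) were below vehicle (15%, against 5.61% of all tested genes). With libraries scaled by totals alone it was 0 (0%, against 4.35%). It was 5 without 24 h replicate 1 (25%, against 11.6%) and 5 without replicate 2 (25%, against 10.4%). Lyz2, lysozyme, had 3196, 2873 and 3061 CPM at 24 h, against 4754, 4201 and 3809.9 CPM in vehicle (-0.48, SE 0.19, adjusted p = 0.51, edgeR). Of 18 neutrophil secondary granule genes, 16 had a negative log2 fold change (against 6588 of all 13384 tested), with a median of -0.35. Only 1 of them was free of overlap (5.56%, near the 5.61% of all genes). Vehicle replicate 3 was the high library there, with list means of 5.21, 5.52 and 5.99 log2 CPM at 24 h, against 5.65, 5.64 and 6.45 log2 CPM in vehicle. Of 17 integrated stress response genes, Slc7a11, a cystine transporter, had 21.4, 12.2 and 13.4 CPM at 24 h, against 27.3, 35.7 and 36.0 CPM in vehicle (-1.07, SE 0.28, adjusted p = 0.28, edgeR). Pycr1, of proline synthesis, went the other way, at 2.33, 7.26 and 7.03 CPM at 24 h, against 0.581, 0.645 and 2.16 CPM in vehicle (2.30, SE 0.51, adjusted p = 0.16, edgeR).

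The number of calls depended on which library was in the fit. Without 24 h replicate 1, 39 genes were called higher and 0 lower, and without 24 h replicate 3, 36 were called higher and 76 lower. The 14 genes were among the calls in both cases. Without 24 h replicate 2, the middle library, 4 genes were called, and without vehicle replicates 1, 2 and 3 there were 7, 3 and 6. When only the 6 libraries compared were fitted, Mapre3 was the 1 gene called. In the 12 fits that left out 1 library, Mapre3 and Runx1t1 were always called, Syt13 lost its call in 1, Pdzk1ip1 in 2, Slc4a5, Car8, Scd1 and Mtss2 in 3, and Cpne8, Rims3 and Ptprn in 4. Hsd3b6 and Nif3l1 lost it in 10 and Rragd in 9. The log2 fold change of each of the 14 kept its sign in all 26 alternatives.

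**Figure D5:**
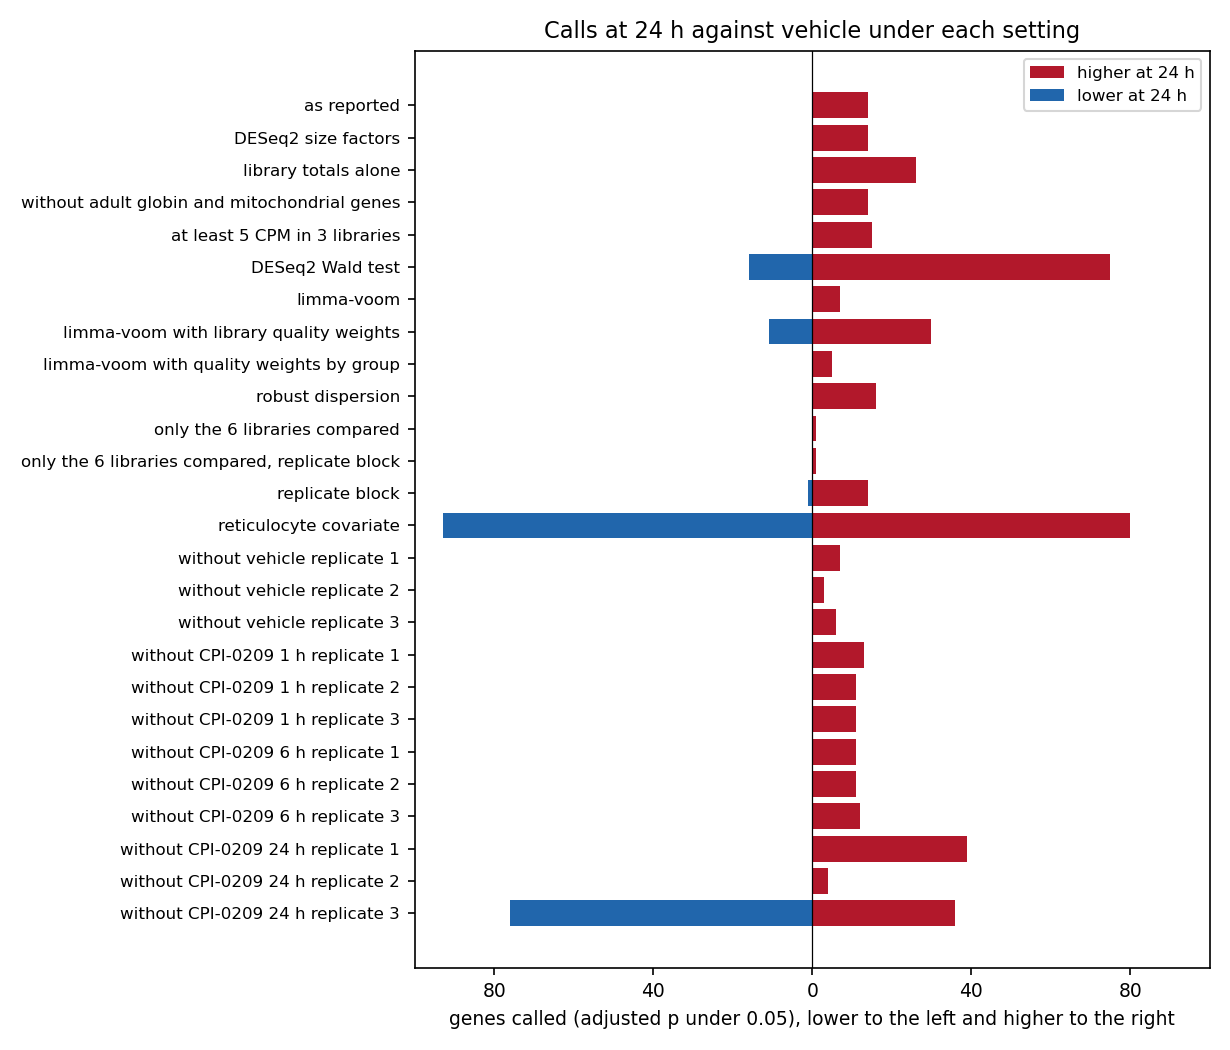
Number of genes called at 24 h against vehicle (horizontal axis, higher to the right in red, lower to the left in blue) in the fit as reported (14 higher, 0 lower) and under 25 alternative settings. The fit with no filter on low counts (165 higher, 72 lower) lies beyond the axis and is not drawn. The longest bars toward lower are those with a reticulocyte covariate (93) and without 24 h replicate 3 (76).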

How the data were processed

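RNA of whole blood, extracted with a PAXgene kit, was depleted of ribosomal RNA and sequenced as paired reads of 150 bases, per the labels. The authors deposited 1 table of whole-number counts per gene. RSEM is listed in the submitters' processing notes, so the counts may be rounded estimates. The notes also list hg38, although all identifiers are of mouse genes. No source used here names the aligner, the annotation or the strand setting.

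Groups were taken from the labels. Of 55367 genes, 13384 passed edgeR's filterByExpr and were fitted with 4 group means over all 12 libraries (edgeR 4.0.16 in R 4.3.3, TMM scaling, quasi-likelihood test, Benjamini-Hochberg adjustment, threshold 0.05). Log2 CPM used a prior count of 2. The script was tested on simulated data. Alternatives used limma 3.58.1 and DESeq2 1.42.0, other scalings and filters, and left out each library in turn. Intervals cover counting error only. Positions are from GENCODE M21 on GRCm38 (55035 identifiers matched), and promoters from RefSeq on GRCm38.p6.

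Named genes are the called ones, the 8 next by p in each direction among genes with a mean of at least 1 log2 CPM and no overlap, the PRC2 core, the 10 with the widest 24 h range, and up to 4 of each described list by p and 3 by range. Members listed for having no overlap were named after their values were seen. Genes and lists were chosen with earlier results of these data known. 1 gene that this rule names is not reported here.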

Additional observations from a re-analysis of the deposited data

Results flagged for a closer look

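The 24 h and 6 h groups were compared directly, so these differences do not use the vehicle libraries. Among the called genes, the 8 next by p in each direction and the PRC2 core, 7 differed between these treated times at an edgeR adjusted p under 0.05. Some list members named above passed too, such as Epb42 (-1.78, adjusted p = 0.037) and Urod (-1.59, adjusted p = 0.045). Of the genes called against vehicle, 4 were lower at 24 h than at 6 h, on the log2 scale: Slc4a5 (-2.15, adjusted p = 0.032), Rragd (-1.56, adjusted p = 0.021), Scd1 (-1.12, adjusted p = 0.032) and Runx1t1 (-1.07, adjusted p = 0.037). Rims3 was higher at 24 h than at 6 h by 1.29 (adjusted p = 0.048). Of the genes next by p against vehicle, Carnmt1 was lower at 24 h than at 6 h, at -1.53 (adjusted p = 0.027), and so was Slc39a4, at -1.32 (adjusted p = 0.043).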

How the results depend on the processing

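With 3 libraries a group, the counts of calls depended on the setting. Against 14 higher and 0 lower as reported, scaling by totals alone gave 26 higher, and it moved the median of all genes to 0.07 log2 units. No filter on low counts gave 165 higher and 72 lower, DESeq2's Wald test 75 and 16, limma-voom 7 higher, voom with library weights 30 higher and 11 lower, and voom with group weights 5 higher. A reticulocyte covariate gave 80 higher and 93 lower. Leaving out 1 library gave 3 to 39 higher and 0 to 76 lower. The cause was not tested. The share of genes with a larger SD at 24 h ran from 51.3% to 72.3% when 1 library was left out (6866 to 9682 genes), which sets 2 libraries against 3.

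Deviations of same-numbered 24 h and vehicle libraries correlated at 0.168, 0.025 and 0.107. Each 24 h library correlated best with the vehicle library of its own number, and the other pairs ran from -0.168 to 0.0744. Vehicle replicate 2, however, correlated better with 24 h replicate 3 (0.0744) than with 24 h replicate 2. Whether the numbers pair the groups was not tested. The replicate block gave 14 higher, 13 of them among the 14 reported, with Mtss2 lost, and 1 lower. With only the 6 libraries compared, 1 gene was higher without the block and 1 with it.

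Among the called genes, the next by p, the PRC2 core and the list members with the smallest p, the sign of the log2 fold change turned for 4. The widest-range genes were not recomputed. Without 1 library, the log2 fold change of Ezh2 ran from -1.07 (24 h replicate 3 left out) to 0.027 (replicate 1 left out), the log2 fold change of Eed from -0.39 to 0.017 for the same libraries, and the log2 fold change of Pcgf5 from -0.009425 (replicate 3 left out) to 0.74 (replicate 2 left out). Under voom with library weights the log2 fold change of Ezh1 was -0.068 and that of Pcgf5 -0.16. None of these 4 genes passed as reported, and the cause was not tested.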

Other observations

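A smaller set of genes had the opposite order of the 24 h libraries, with replicate 1 highest. Wdfy4, which serves antigen presentation in dendritic cells, had 268, 104 and 49.1 CPM at 24 h and 104, 129 and 110.2 CPM in vehicle. Mtor, the kinase of nutrient signalling, had 49.3, 22.7 and 11.6 CPM at 24 h and 26.5, 23.1 and 24.4 CPM in vehicle. Fn1, fibronectin, had 1269.7, 413 and 245 CPM at 24 h and 1339, 265 and 329 CPM in vehicle, where replicate 1 was high as well. Xist, looked at after its values were seen, had 832, 2575 and 3667 CPM at 24 h and 3716, 2966 and 3439 CPM in vehicle, so that 24 h replicate 1 was the lowest of the 6 libraries.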
